A study of Homo sapiens with 12 samples.

Results

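LmnB1_16 is a clonal hTERT RPE-1 line that overexpresses lamin B1 fused to the red fluorescent protein mCherry, and mCherry_4 is a clonal control line that overexpresses mCherry alone. The 3 LmnB1_16 libraries were set against the 3 mCherry_4 libraries, chosen by the clone name in the sample title, which makes 6 of the 12 mRNA-seq libraries of the series. The other 6 libraries come from a further clone of each construct, LmnB1_6 and mCherry_3, and were used for comparison. hTERT RPE-1 cells are human cells of pigment epithelial origin that were made to express telomerase and divide without limit. All cultures, controls included, grew with hygromycin B and received doxycycline, an inducer of tetracycline-controlled promoters, at 0.05 ug/mL for 24 hours. The labels do not name the promoter of the construct. Each construct is represented in this comparison by 1 clone, so what belongs to the construct and what belongs to the clone cannot be told apart. The titles call the 3 libraries of a clone biological replicates and say nothing of separate cultures, so the p-values cover only how far these libraries differ, which may be technical.

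Lamin B1 is a B-type lamin, an intermediate filament protein that stays attached to the inner nuclear membrane through its lipid tail. With the other lamins it forms the nuclear lamina, a meshwork under the nuclear envelope that is bound by long, mostly silent stretches of chromatin. Its level is known to fall in senescent cells, and an extra copy of its gene causes an adult-onset loss of myelin. The comparison asks which transcripts differ between a clone with extra lamin B1 and a control clone.

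The files gave estimated counts for 60708 genes, of which 15388 passed the filter on low counts and were tested. Total estimated counts were 20752890 to 27371640 in the LmnB1_16 libraries and 23040590 to 25291449 in the mCherry_4 libraries. Mitochondrial transcripts took 2.06% to 2.49% of the counts in these 6 libraries. No pair of libraries of the same clone agreed within sampling noise, with a chi-square per degree of freedom of at least 5.43 in these clones. Levels are given as CPM (counts scaled to a common library size with TMM factors), in the order of replicates 1, 2 and 3. Differences, also where given alone in brackets, are log2 fold changes of LmnB1_16 over mCherry_4, with their standard error (SE). A gene was called where edgeR's quasi-likelihood test gave a Benjamini-Hochberg adjusted p under 0.05 over all 15388 genes. CPM is not scaled by gene length, so levels are compared between libraries and not between genes.

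The labels were checked first with the gene of the construct, which can tell the lamin B1 fusion from mCherry alone but not the clones of one construct. LMNB1 (ENSG00000113368.12) lies on GRCh38 chromosome 5, 126776623 to 126837020, plus strand, and stood at 160.0, 169 and 155 CPM in the mCherry_4 libraries and at 3330.4, 3666 and 3126 CPM in the LmnB1_16 libraries. The lowest LmnB1_16 library was far above the highest mCherry_4 library, and the log2 fold change was 4.39 (SE 0.08, edgeR adjusted p = 2.0e-15). Gene-level counts do not separate transcripts of the construct from those of the endogenous gene. In the authors' deposited tables LMNB1 had an effective length of 2459.8 ± 16.8 bases in mCherry_4 and 1023 ± 11.7 bases in LmnB1_16 (SD, n = 3). The TPM of LMNB1, which the authors' quantification scales by that length, was 92.6 ± 5.65 in mCherry_4 and 4861 ± 656 in LmnB1_16 (SD, n = 3).

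Of the other lamin genes LMNA fell and LMNB2 was not called. LMNB2, which encodes the other B-type lamin, stood at 417, 432 and 434 CPM in mCherry_4 and 459.7, 431 and 478 CPM in LmnB1_16, a log2 fold change of 0.09 with an SE of 0.06 (edgeR adjusted p = 0.33). LMNB2 shares exon sequence with TIMM13 on the same strand, and its libraries overlapped between the clones. LMNA, which encodes lamins A and C, stood at 1145, 1322 and 1214 CPM in mCherry_4 and 932, 979.8 and 984 CPM in LmnB1_16. All LmnB1_16 libraries were below all mCherry_4 libraries, and LMNA fell by 0.35 on the log2 scale (SE 0.06, edgeR adjusted p = 8.2e-04). Its means were 1227 CPM in mCherry_4, 775 in mCherry_3, 1101 in LmnB1_6 and 965 in LmnB1_16, so mCherry_4 was the highest clone. Against mCherry_3, LmnB1_6 had log2 fold changes of 0.51 for LMNA and 0.75 for LMNB2. The difference between the contrasts was called for both genes (edgeR adjusted p = 9.3e-07 and 1.0e-05). On the length-scaled TPM of the authors' files, LMNB1 was the lowest of the 3 lamin genes in each mCherry_4 library (87.1 to 98.4, against 138 to 143 for LMNB2 and 808 to 937 for LMNA) and the highest in each LmnB1_16 library (4363 to 5604).

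In all, 2411 of 15388 genes were called (15.7%), of which 1026 were higher in LmnB1_16 (6.67%) and 1385 lower (9.00%). With limma on log2(TPM + 1) 1418 genes were called, and the split was 755 higher to 663 lower. Most differences were small: 1447 of the called genes differed less than 1.5-fold, 398 by 1.5-fold to 2-fold, 298 by 2-fold to 4-fold, 167 by 4-fold to 16-fold and 101 by more than 16-fold. At least 2-fold, 566 genes were called (3.68%): 279 genes were higher (1.81%) and 287 lower (1.87%). The median log2 fold change over all tested genes was 0.0022. The 3 libraries of one clone lay entirely above or below those of the other for 4692 genes (30.5%). The chromosome medians of the log2 fold change ran from -0.02 (chromosome 9) to 0.03 (chromosome 2), and the share of genes called from 11.1% (chromosome 16) to 22.0% (chromosome 18), so no chromosome was shifted as a whole by more than a few hundredths.

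**Figure D1:**
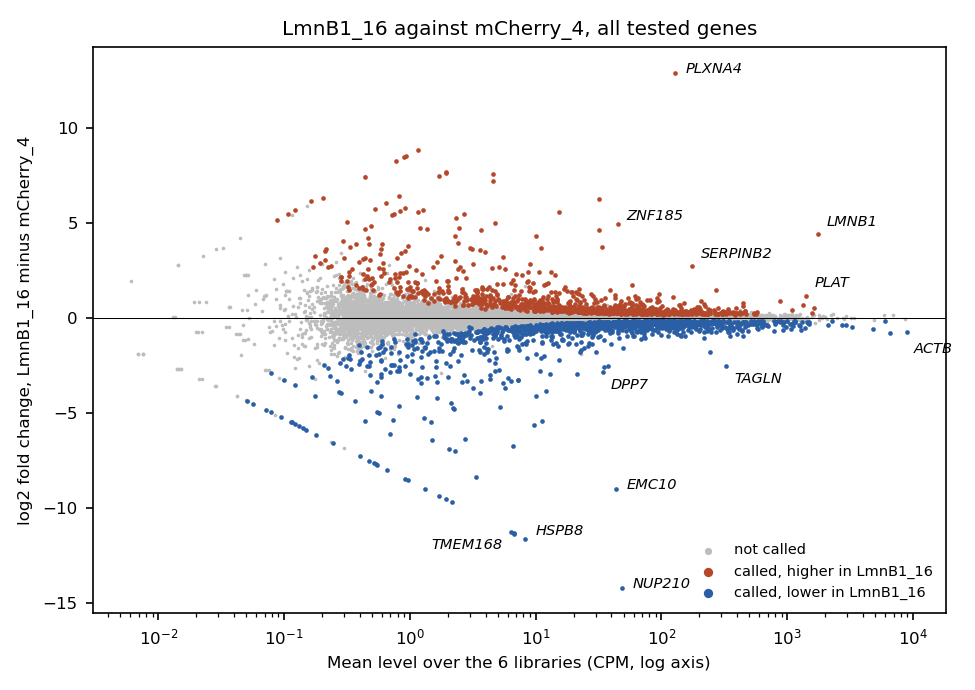
Log2 fold change (LmnB1_16 over mCherry_4, vertical axis) against the mean level over the 6 libraries (CPM, log axis) for the 15388 tested genes, with the 1026 genes called higher in red, the 1385 called lower in blue and the others in grey. PLXNA4 and LMNB1 stand out among the higher genes and NUP210 and EMC10 among the lower; the straight lower edge holds genes with 0 counts in LmnB1_16, whose plotted fold change depends on the level in mCherry_4.

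The largest differences were in genes expressed in one clone and silent in the other. With silent taken as under 0.5 CPM in each library of a clone and expressed as at least 5 CPM in each, 14 genes had this pattern, all of them protein coding. In 5 genes it was LmnB1_16 that expressed them (PLXNA4, CMBL, APOL3, PCSK1N and HOXB4), and in 9 it was mCherry_4 (NUP210, EMC10, HSPB8, FNDC10, GALC, MAOA, TMEM168, NKD1 and GAL3ST4). With a threshold of at least 1 CPM for expression, 75 genes had the pattern.

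For 3 of these genes the DNA just upstream of the transcript is shown, as examples of 3 patterns over the 4 clones: NUP210 was expressed in mCherry_4 alone, PCSK1N silent in mCherry_4 alone and GAL3ST4 silent in LmnB1_16 alone. The sequences come from RefSeq (GRCh38.p14), end before the first annotated exon, read 5′ to 3′ along the gene and carry the dinucleotide CG, the usual site of DNA methylation, in capitals. All 3 genes lie on the minus strand. NUP210 (chr3:13420323-13420572) holds 33 CG in the stretch shown, PCSK1N (chrX:48835634-48835860) holds 11 and GAL3ST4 (chr7:100168751-100168867) holds 4.
NUP210: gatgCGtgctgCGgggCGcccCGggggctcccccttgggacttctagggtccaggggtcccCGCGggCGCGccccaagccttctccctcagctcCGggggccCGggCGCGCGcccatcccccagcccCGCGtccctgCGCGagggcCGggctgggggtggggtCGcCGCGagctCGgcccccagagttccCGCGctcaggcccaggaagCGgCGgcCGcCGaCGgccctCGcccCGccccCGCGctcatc
PCSK1N: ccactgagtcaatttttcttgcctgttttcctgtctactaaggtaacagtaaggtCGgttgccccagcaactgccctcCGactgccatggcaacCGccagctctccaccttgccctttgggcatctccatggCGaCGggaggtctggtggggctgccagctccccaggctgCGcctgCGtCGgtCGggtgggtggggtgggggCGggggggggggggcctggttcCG
GAL3ST4: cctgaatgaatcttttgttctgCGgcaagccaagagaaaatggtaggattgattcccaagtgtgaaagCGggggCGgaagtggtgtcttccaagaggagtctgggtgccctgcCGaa
CG reads the same on both strands, and 99.0% of the 11101 tested genes with a RefSeq promoter hold at least 1 in the 250 bases upstream. Only 9 of the 14 genes matched that table, so the CG counts of the 14 are not compared with other genes. DNA methylation was not measured in these libraries.

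PLXNA4 (ENSG00000221866.9, chromosome 7, 132123332 to 132648688, minus strand) encodes plexin A4, a receptor for semaphorins in axon guidance. It had 2 counts in all mCherry_4 libraries together and stood at 242, 313 and 213 CPM in the LmnB1_16 libraries. The ratio was 8759-fold, counting interval 2424 to 72334 (95%, counting error only). PLXNA4 had no count in any library of mCherry_3 or LmnB1_6, so LmnB1_16 was the only clone of the 4 in which it was expressed. APOL3, an apolipoprotein L gene, was at 0.0451, 0.0417 and 0.0424 CPM in mCherry_4 and 8.95, 9.98 and 8.54 CPM in LmnB1_16, with means of 0.812 in mCherry_3 and 0.0663 in LmnB1_6.

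PCSK1N, CMBL and HOXB4 were silent in mCherry_4 alone. PCSK1N, whose product inhibits a prohormone convertase, was at 0.135, 0 and 0.0424 CPM in mCherry_4 and 8.86, 7.03 and 11.4 CPM in LmnB1_16, and its means were 34 in mCherry_3 and 6.01 in LmnB1_6. CMBL, which encodes a hydrolase, was at 0.316, 0.417 and 0.127 CPM in mCherry_4 and 9.24, 7.91 and 10.6 CPM in LmnB1_16, and at 9.88 and 15.2 in mCherry_3 and LmnB1_6. HOXB4, a homeobox gene whose exons overlap HOXB3 on the same strand, was at 0, 0.0835 and 0.254 CPM in mCherry_4 and 5.11, 5.06 and 5.68 CPM in LmnB1_16. The means of HOXB4 were 5.58 in mCherry_3 and 6.99 in LmnB1_6. For all 3 genes LmnB1_16 was expressed like mCherry_3 and LmnB1_6, and it was the control clone mCherry_4 that stood apart.

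NUP210 (ENSG00000132182.12, chromosome 3, 13316235 to 13420309, minus strand) encodes a membrane-spanning protein of the nuclear pore. It stood at 100.1, 98.2 and 93.6 CPM in the mCherry_4 libraries and had no count in any LmnB1_16 library. It was at least 2211-fold lower in LmnB1_16, taking 3 counts over the 3 libraries as the limit that a count of 0 allows (counting error only). Its means were 0.273 CPM in mCherry_3 and 0.521 CPM in LmnB1_6, so mCherry_4 was the only clone with more than a trace. GALC, which encodes the lysosomal enzyme galactosylceramidase, had the same order: it stood at 14.1, 12.2 and 13.8 CPM in mCherry_4 and had no count in the other 3 clones (at least 304-fold lower in LmnB1_16).

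TMEM168 and GAL3ST4 were silent in LmnB1_16 alone. TMEM168, a membrane protein gene, was at 11, 14.6 and 12.6 CPM in mCherry_4 with no count in LmnB1_16 (at least 289-fold lower), and at 14.9 and 13.6 CPM in mCherry_3 and LmnB1_6. GAL3ST4, which encodes a sulfotransferase acting on galactose, was at 5.78, 5.38 and 5.13 CPM in mCherry_4 and 0.0973, 0.0492 and 0.0366 CPM in LmnB1_16, and at 4.17 and 5.21 CPM in mCherry_3 and LmnB1_6.

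HSPB8 and MAOA were silent in both LmnB1 clones and expressed in both mCherry clones. HSPB8, a small heat shock protein of chaperone-assisted autophagy, was at 16.2, 16.6 and 16.6 CPM in mCherry_4 with no count in LmnB1_16 (at least 375-fold lower). MAOA, which encodes monoamine oxidase A, was at 12.7, 11 and 15.7 CPM in mCherry_4 and 0, 0.147 and 0.183 CPM in LmnB1_16 (-6.75, SE 0.34, edgeR adjusted p = 6.7e-10). The levels in the 2 other clones were 43.9 and 0.0112 CPM for HSPB8 and 20.5 and 0.0499 CPM for MAOA, in mCherry_3 and LmnB1_6.

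EMC10, FNDC10 and NKD1 went the other way in the other clones: they were expressed in mCherry_4 and LmnB1_6 and silent in LmnB1_16 and mCherry_3. EMC10, a subunit of the complex that inserts proteins into the endoplasmic reticulum membrane, was at 87.8, 83 and 90.9 CPM in mCherry_4 and 0.243, 0 and 0.220 CPM in LmnB1_16 (-9.03, SE 0.19, edgeR adjusted p = 1.1e-14). NKD1, an inhibitor of Wnt signalling, was at 7.49, 6.39 and 6.31 CPM in mCherry_4 and had 1 count in the LmnB1_16 libraries (458-fold, counting interval 81.7 to 18116). FNDC10 was at 12.8, 15.4 and 12.4 CPM in mCherry_4 with no count in LmnB1_16 (at least 307-fold lower). The means in LmnB1_6 were 94.1 CPM for EMC10, 372 for NKD1 and 18 for FNDC10.

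Of 28 tested genes taken as neighbours of these 14 on the chromosome, 1 on each side, 2 were called and neither changed 2-fold or more. Their distances differed widely: FLRT2 lay 2183 kb from GALC and CASK 1731 kb from MAOA, but TRAPPC14 only 0.529 kb from GAL3ST4. Some were near 0, such as HOXB-AS2 at 0 CPM in mCherry_4 and 0.0286 CPM in LmnB1_16. HOXB3, whose span includes HOXB4, was not among the 28 and was called higher (0.61). That call was lost without mCherry_4 replicate 1 or 2 and with only the 6 libraries (adjusted p up to 0.111). Over all tested genes the shares were 15.7% called and 3.68% called at 2-fold, so counts this small do not set the neighbours apart. PODXL, 565 kb from PLXNA4, was at 262 CPM in mCherry_4 and 186 CPM in LmnB1_16 (log2 fold change -0.49). POLD1, 58.4 kb from EMC10, was at 84.5 and 97.9 CPM (0.21), a call lost without mCherry_4 replicate 1 or 2 or LmnB1_16 replicate 1 or 3 (adjusted p up to 0.207 over all alternatives). HDAC11 and IQSEC1, the neighbours of NUP210, were not called (-0.22 and -0.07). Neighbours were counted after the 14 genes were known, so they serve as a description.

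**Figure D2:**
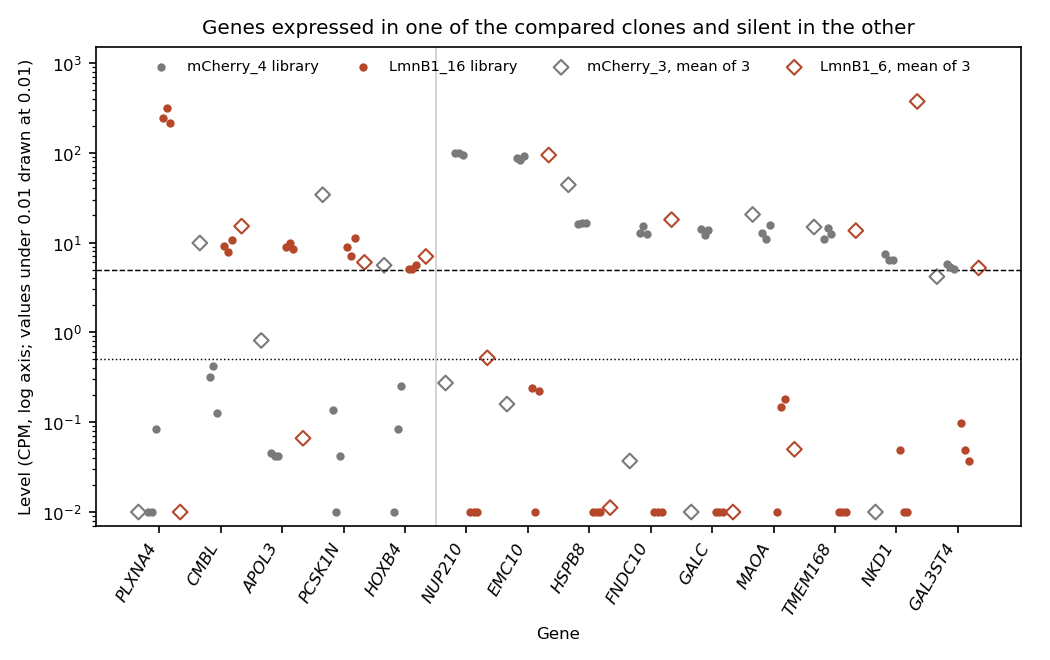
Level (CPM, log axis, values under 0.01 drawn at 0.01) of the 14 genes expressed in one of the compared clones and silent in the other; filled points are the 3 libraries of mCherry_4 (grey) and LmnB1_16 (red), open diamonds the means of mCherry_3 and LmnB1_6, and the lines mark 0.5 and 5 CPM. The 5 genes on the left are expressed in LmnB1_16 and the 9 on the right in mCherry_4, while the diamonds fall on either side.

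Beyond these genes, CMKLR1 and ATP11A had the largest called rises among protein-coding genes with a mean of at least 2 CPM. CMKLR1, a receptor for the adipokine chemerin, was at 0.451, 0.918 and 1.10 CPM in mCherry_4 and 55.5, 68.9 and 64.4 CPM in LmnB1_16 (6.23, SE 0.16, edgeR adjusted p = 2.6e-13). ATP11A, a phospholipid flippase gene, was at 0.722, 0.710 and 0.466 CPM in mCherry_4 and 29.9, 31.3 and 28.5 CPM in LmnB1_16. In both genes every LmnB1_16 library was far above every mCherry_4 library. ZNF185, whose product binds actin, was at 2.17, 3.71 and 2.75 CPM in mCherry_4 and 88.5, 88.5 and 84.8 CPM in LmnB1_16 (4.91, SE 0.13). AKR1C3, an aldo-keto reductase of steroid metabolism with near-identical relatives, rose by 4.31 on the log2 scale from 0.95 to 19.1 CPM. POGLUT3, an enzyme that adds glucose to secreted proteins, rose by 4.62 from 2.49 to 61.6 CPM, APBA2, a neuronal adaptor gene, by 4.59 to 7.04 CPM and GPLD1, whose exons overlap 2 genes on the opposite strand, by 4.73 to 4.70 CPM. MAGED4, which has a near-identical copy and is therefore uncertain, was at 0, 0 and 0.890 CPM in mCherry_4 and 3.80, 5.11 and 4.80 CPM in LmnB1_16, and its call was lost with DESeq2 (adjusted p = 0.0525).

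Among the falls, SHISA2 averaged 21.8 ± 1.99 CPM (SD, n = 3) in mCherry_4 and stood at 0.438, 1.08 and 0.110 CPM in LmnB1_16 (-5.42, SE 0.30, edgeR adjusted p = 2.1e-09). IRF7, a transcription factor of the interferon response, was at 4.74, 3.92 and 4.96 CPM in mCherry_4 and had 2 counts in the LmnB1_16 libraries (155-fold, counting interval 42.4 to 1282). RHOD, a small GTPase gene, was at 3.66, 3.76 and 4.79 CPM in mCherry_4 and also had 2 counts in LmnB1_16 (139-fold, counting interval 38.1 to 1152). ATP8A1, another phospholipid flippase, fell by 4.83 from 4.33 to 0.147 CPM, and ABCA8, a lipid transporter gene, by 4.73 from 4.30 to 0.139 CPM. FHL1, which encodes a LIM domain protein of muscle and stretched cells, had one of the most precise falls, from 58.2, 57.1 and 65.4 CPM to 9.59, 10.03 and 9.64 CPM (log2 fold change -2.63, SE 0.07). DPP7, a lysosomal dipeptidase, was at 65.3, 56.6 and 58 CPM in mCherry_4 and 8.56, 8.01 and 7.95 CPM in LmnB1_16 (-2.88, SE 0.09).

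Cytoskeletal transcripts held the largest losses in absolute level. ACTB, the gene of beta-actin, fell from 10978, 11688 and 11421 CPM in mCherry_4 to 6658, 6596 and 6638 CPM in LmnB1_16 (-0.78, SE 0.05, edgeR adjusted p = 3.7e-09). ACTG1, the gene of gamma-actin, fell from 8269.6, 8762 and 8171 to 4741, 4681 and 4758 CPM (-0.83, SE 0.06). All LmnB1_16 libraries were below all mCherry_4 libraries for both actins. FLNA, the actin cross-linker filamin A, fell by 0.62 from 5832 to 3797 CPM, and MYH9, the heavy chain of non-muscle myosin, by 0.51 from 3827 to 2679.5 CPM. VIM, the intermediate filament vimentin, had a log2 fold change of -0.20 (6380.3 to 5548 CPM), and its call was lost in 4 of the 6 fits that left out 1 library, those without mCherry_4 replicate 1 or 2 or LmnB1_16 replicate 1 or 3 (adjusted p up to 0.218 over all alternatives). The mean of ACTB was 6353 CPM in mCherry_3 and 7481 CPM in LmnB1_6, and that of ACTG1 3799 and 5752 CPM, so mCherry_4 had the highest level of both actins among the 4 clones. Against mCherry_3, LmnB1_6 had log2 fold changes of 0.24 for ACTB, 0.60 for ACTG1 and 0.44 for FLNA, and the difference between the contrasts was called for each (edgeR adjusted p = 3.0e-09, 2.5e-09 and 4.7e-08).

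Integrins and focal adhesion proteins, which tie the actin cytoskeleton to the matrix, were mostly lower. Of 30 tested genes of the list, 17 fell and 3 rose, against 9.00% and 6.67% over all tested genes, and the median log2 fold change was -0.25 (-0.28 to -0.15 over the alternatives) against 0.0022. TNS1, the adaptor tensin 1, was at 201, 212 and 193 CPM in mCherry_4 and 103, 115 and 95.8 CPM in LmnB1_16 (-0.95, SE 0.07, edgeR adjusted p = 4.5e-08). The other falls were in ITGB3 (-0.98), FLNC (-0.67), ACTN1 (-0.65), FLNA, ZYX (-0.52), FERMT2 (-0.50), ITGA5 (-0.44), ACTN4 (-0.41), VCL (-0.38), ITGA7 (-0.34), PARVA (-0.30), ILK (-0.28) and 4 further genes whose calls were lost without at least 1 library. That of PARVA was lost with effective-length offsets and with limma on TPM (adjusted p up to 0.285). The 3 rises were in integrin chains: ITGA4 was at 27, 28.2 and 25.7 CPM in mCherry_4 and 87.4, 94.4 and 84.2 CPM in LmnB1_16 (1.72, SE 0.07), ITGA2 at 44.3, 37.3 and 44.1 CPM in mCherry_4 and 80.4, 90.6 and 79.8 CPM in LmnB1_16 (1.00), and ITGB8 rose by 1.41. Leaving out 1 library gave 13 to 16 falls and 3 to 5 rises. With LmnB1_6 against mCherry_3, 11 of the 30 were called higher and 11 lower (median -0.10), against 26.0% and 26.8% over all tested genes.

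Targets of YAP and TEAD, the transcription regulators that respond to cell shape and adhesion, were lower where they were called. Of 26 tested targets 13 fell and none rose (edgeR; none at unadjusted p under 0.05 and none with DESeq2), with a median of -0.25 (50% lower, against 9.00% over all tested genes). FSTL1, a secreted glycoprotein gene, was at 1146, 1187 and 1096 CPM in mCherry_4 and 799, 841 and 804 CPM in LmnB1_16 (-0.49, SE 0.05, edgeR adjusted p = 7.5e-06). CRIM1 fell by 0.44 from 1439.8 to 1063 CPM and WWC1, which encodes the Hippo pathway protein KIBRA, by 0.57 from 57 to 38.4 CPM. The other falls were F3 (-0.95), TGFB2 (-0.75), RBMS3 (-0.61), AMOTL2 (-0.56) and ARHGEF17 (-0.41), and CCN1, a classic target, fell by 0.32, a call lost without mCherry_4 replicate 1 (adjusted p = 0.0548). ARHGEF17 lost its call with effective-length offsets and with limma on TPM (up to 0.206). A further 4 falls were lost without at least 1 library. The count of falls was 8 without mCherry_4 replicate 1 and 8 with limma on TPM. With LmnB1_6 against mCherry_3, 7 of the 26 were called higher and 12 lower (median -0.15), against 26.0% and 26.8% over all tested genes.

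TAGLN, ACTA2 and CNN1, known from contractile cells, fell, while most tested members of the marker list that holds them were not called. TAGLN, the actin-binding protein transgelin, was at 542, 581 and 543 CPM in mCherry_4 and 85, 84.9 and 110.3 CPM in LmnB1_16 (-2.57, SE 0.09, edgeR adjusted p = 7.9e-12). TAGLN overlaps PCSK7 on the opposite strand, and no source used here states the strand of the counting. ACTA2, smooth muscle actin, which overlaps FAS on the opposite strand, was at 20.9, 23.8 and 18.1 CPM in mCherry_4 and 8.95, 7.23 and 8.61 CPM in LmnB1_16 (-1.34). Of 20 tested epithelial and mesenchymal markers 5 fell (TAGLN, ACTA2, CNN1, CDH4 and VIM) and 1 rose, the cadherin gene CDH6, from 41.1, 42.2 and 34.1 CPM to 54, 73.9 and 62.2 CPM. The list's median was -0.04 (30% called, against 15.7% over all tested genes), and CDH1 had 1 count and EPCAM none in the 6 libraries. The call of CDH4 was lost with limma on TPM (adjusted p = 0.097) and that of VIM as given above. Of 16 tested keratin and desmosome genes 7 fell and none rose by edgeR or DESeq2 (1 higher at unadjusted p under 0.05), with a median of -0.21 (43.8% lower, against 9.00% over all tested genes). KRT81, a hair keratin with near-identical relatives, was at 35.2, 40.2 and 38.4 CPM in mCherry_4 and 5.25, 2.61 and 6.34 CPM in LmnB1_16 (-2.97), and the desmosome genes DSC3, DSP and PKP2 fell by 0.90, 0.75 and 0.71. With LmnB1_6 against mCherry_3, 9 of the 16 were called higher and 5 lower (median 0.17), against 26.0% and 26.8% over all tested genes.

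**Figure D3:**
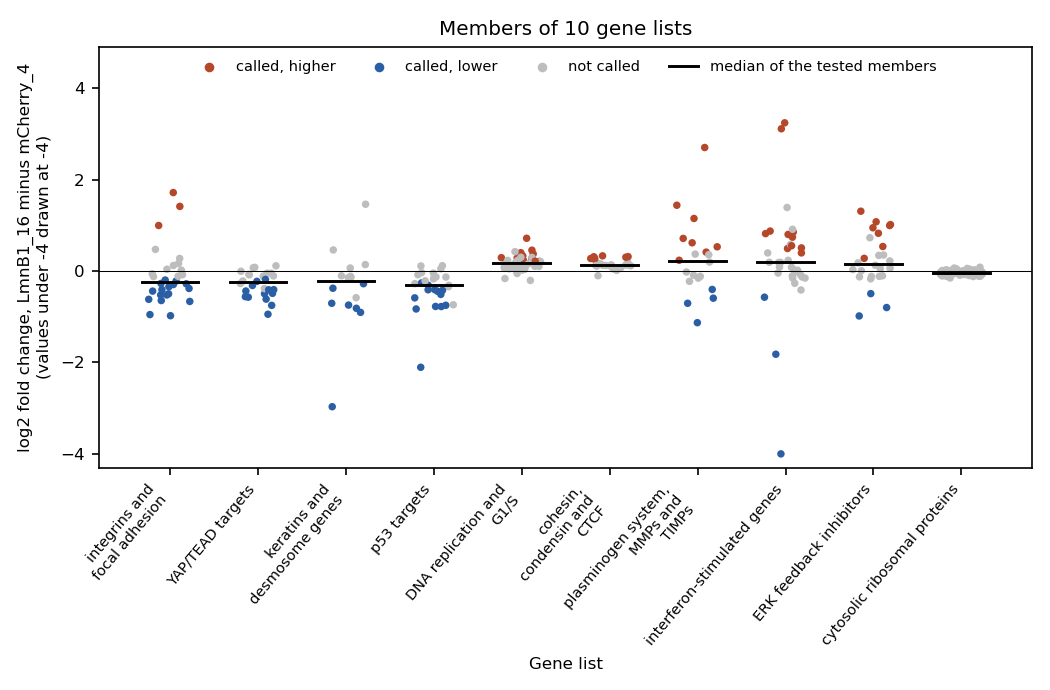
Log2 fold change (LmnB1_16 over mCherry_4; values under -4 drawn at -4) of each tested member of 10 gene lists, in red where called higher, blue where called lower and grey where not called, with the list's median as a bar. Focal adhesion, YAP/TEAD, keratin and p53 members lie mostly below 0, replication and cohesin members mostly above it, and ribosomal protein genes close to 0.

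Extracellular matrix genes moved in both directions. Of 19 tested collagen genes 5 rose and 4 fell, with a median of 0.21 (0.019 to 0.31 over the alternatives; 47.4% called, against 15.7% over all tested genes). The basement membrane chains COL4A1 and COL4A2 fell: COL4A1 from 527, 546 and 474 CPM to 278, 282 and 281 CPM (-0.88, SE 0.07, edgeR adjusted p = 9.2e-08) and COL4A2 likewise (-0.49). COL18A1, which overlaps SLC19A1 on the opposite strand, fell by 0.91. The rises were in COL13A1 (0.53), COL12A1 (0.44), COL6A3 (0.49), COL4A4 (0.78) and COL16A1 (0.64), the last lost without mCherry_4 replicate 3 (adjusted p = 0.0548). COL6A3 and COL12A1 lost their calls with effective-length offsets and with limma on TPM (up to 0.155 and 0.0624).

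Laminins, glycoproteins and proteoglycans of the matrix split almost evenly, with 9 of 29 tested genes higher and 8 lower (median 0.04; 58.6% called, against 15.7% over all tested genes). BGN, the small proteoglycan biglycan, rose from 5.19, 4.22 and 5.13 CPM in mCherry_4 to 61.5, 59.9 and 67.7 CPM in LmnB1_16 (3.70, SE 0.10, edgeR adjusted p = 4.5e-13). VCAN, the large proteoglycan versican, rose from 671, 641 and 546 to 1070.3, 1385 and 974 CPM (0.88, SE 0.11). Among laminin chains LAMA5 fell from 63.8, 55.1 and 54.2 CPM to 24.1, 21.1 and 20.1 CPM (-1.41) while LAMB3 rose from 71.5, 79.4 and 85 CPM to 175, 159.7 and 171 CPM (1.10) and LAMA4 by 1.13. SDC2, a cell-surface proteoglycan, fell by 1.06 from 101 to 48.4 CPM. THBS1, the matrix glycoprotein thrombospondin 1, was at 1447, 1523 and 1112 CPM in mCherry_4 and 1783, 2391 and 1520.5 CPM in LmnB1_16 (0.48, SE 0.15); its call was lost without mCherry_4 replicate 1 or 3, without LmnB1_16 replicate 1 or 2 and with DESeq2 (adjusted p up to 0.181).

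The plasminogen system, which degrades matrix through proteases on the cell surface, was higher at its activators. Of 20 tested genes of plasminogen activation, matrix metalloproteases and their inhibitors 8 rose and 4 fell, with a median of 0.22 (60% called, against 15.7% over all tested genes). PLAT, the tissue-type activator, rose from 936, 879.6 and 813 CPM to 2077, 1922 and 1832 CPM (1.15, SE 0.06, edgeR adjusted p = 1.8e-09), and PLAU, the urokinase activator, from 159, 129 and 151 CPM to 457, 362 and 370.5 CPM (1.44, SE 0.10). The libraries of the clones did not overlap for either gene. The inhibitor SERPINB2 also rose, from 43.6, 51.1 and 45.3 CPM to 306, 292 and 313 CPM (2.70, SE 0.08). MMP14, ADAMTS12, MMP16 and TIMP3 rose by 0.41, 0.53, 0.62 and 0.71. Of the falls, 3 were lost in 4 of the 6 fits without 1 library. In LmnB1_6 the 3 leading genes were low: the means were 149 CPM for PLAT, 56.5 for PLAU and 8.81 for SERPINB2, against 873, 204 and 133 in mCherry_3. TGM2, a transglutaminase that cross-links matrix proteins, had one of the largest gains in level, from 1063, 997 and 1039.8 CPM to 1682, 1629 and 1586 CPM (0.66, SE 0.06).

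Most called growth factor ligands of receptor tyrosine kinases were lower, while the called receptors differed. Of 38 tested genes 8 fell and 3 rose (median -0.02; 28.9% called, against 15.7% over all tested genes). The ligand genes GAS6, FGF1, TGFA, HBEGF, PDGFA, NRG1 and BDNF fell, and so did the receptor FGFR1 (-0.33). GAS6, the ligand of the TAM receptors, was at 542, 563 and 521 CPM in mCherry_4 and 350.0, 322 and 331 CPM in LmnB1_16 (-0.70, SE 0.05, edgeR adjusted p = 6.0e-08), and FGF1 fell from 69.5, 73.5 and 65.8 CPM to 36.7, 37.7 and 33.2 CPM (-0.96). TGFA and HBEGF, ligands of the EGF receptor, fell by 0.85 and 0.54. The rises were in the ligand VEGFA (from 121, 91.2 and 113 CPM to 207, 153 and 163 CPM, 0.69) and the receptors PDGFRA (1.13) and KDR, which stayed at or under 1.25 CPM. With limma on TPM the calls of PDGFA and BDNF were lost (adjusted p = 0.0747 and 0.08), and with effective-length offsets that of PDGFRA (0.0641).

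Genes known to be induced by ERK signalling, some of them transcription factors and others inhibitors that restrain it, were called in both directions. Of 26 tested genes 8 rose and 3 fell, with a median of 0.15 (42.3% called, against 15.7% over all tested genes). The transcription factor genes ETV1 and ETV4 rose from 39, 33.1 and 36.1 to 68.1, 78.9 and 71.8 CPM (1.02, SE 0.08, edgeR adjusted p = 6.8e-08) and from 19.2, 20.4 and 19.6 to 38.9, 38.2 and 41 CPM (0.99). EGR1 (1.31), another transcription factor gene, also rose, as did the inhibitors SPRY1 (1.08), DUSP4 (0.95), IL17RD (0.83) and DUSP6 (0.54). The call of IL17RD was lost with limma on TPM (adjusted p = 0.105). DUSP1, a phosphatase induced by stress, fell from 140.0, 144 and 162 CPM to 74.3, 63.4 and 87.6 CPM (-0.98, SE 0.11), with DUSP14 (-0.49).

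Of 29 tested genes of the Wnt pathway 8 fell and 2 rose (median -0.05; 34.5% called, against 15.7% over all tested genes). Besides NKD1 the falls held ligands (WNT10B -1.64, WNT5B -0.79, WNT3 -0.67) and the secreted modulator DKK3 (-0.74). DKK3 was at 434, 419 and 429 CPM in mCherry_4 and 261, 248 and 259 CPM in LmnB1_16, and WNT5B at 353, 356 and 328 CPM in mCherry_4 and 205, 203 and 193 CPM in LmnB1_16. The receptor FZD7 rose by 0.53. Without mCherry_4 replicate 2 the counts were 5 lower and 1 higher.

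Notch pathway genes were called in 5 cases higher and 1 lower of 21 tested (median 0.03; 28.6% called, against 15.7% over all tested genes). Besides POGLUT3, the rises were in the target gene HES1 (from 0.948, 0.710 and 1.53 CPM to 4.67, 3.64 and 5.42 CPM, 2.11, SE 0.34), the co-activator MAML3 (0.79), the receptor NOTCH4 (1.11) and the ligand JAG1 (0.45). The call of NOTCH4 was lost without mCherry_4 replicate 1 or 3 or LmnB1_16 replicate 1 (adjusted p up to 0.19 over all alternatives), and that of JAG1 without mCherry_4 replicate 2 or LmnB1_16 replicate 3 (up to 0.0815). HES4 fell by 0.62 from 17.8 to 11.5 CPM.

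Among 23 tested TGF-beta and BMP ligands and targets 7 rose and 7 fell (median -0.01; 60.9% called, against 15.7% over all tested genes). The ligand gene BMP4 rose from 12.5, 10.9 and 11.4 CPM to 34.5, 27.7 and 35 CPM (1.48, SE 0.12, edgeR adjusted p = 3.0e-07), whereas BMP2 fell by 0.69, a call lost with limma on TPM and with only the 6 libraries (adjusted p up to 0.0755). TGFBI, a matrix protein induced by TGF-beta, fell from 584, 642 and 559 CPM to 356, 371 and 386 CPM (-0.68). LTBP1, which binds latent TGF-beta, rose by 0.32. Without mCherry_4 replicate 1 the counts were 5 higher and 4 lower.

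Axon guidance genes, which also act in adhesion and migration outside the nervous system, were called in both directions, with 10 higher and 8 lower of 45 tested (median 0.06; 40% called, against 15.7% over all tested genes). SEMA6B, several class 3 semaphorins and the neuropilins, which are receptors of class 3 semaphorins, were among the rises. SEMA6B was at 53.8, 52 and 66 CPM in mCherry_4 and 132, 131 and 142 CPM in LmnB1_16 (1.24, SE 0.09, edgeR adjusted p = 3.7e-08), and SEMA3A at 58.9, 52.3 and 54.4 CPM in mCherry_4 and 99.3, 119 and 99.9 CPM in LmnB1_16 (0.94). NRP1 and NRP2 rose by 0.59 and 0.45, beside PLXNA4, EPHB6 (1.71), SEMA3D (1.09) and SEMA3B (0.40). The plexin genes PLXND1 and PLXNA3 fell by 0.44 and 0.37, calls that were lost with effective-length offsets and with limma on TPM (adjusted p up to 0.843 and 0.316). The class 3 gene SEMA3C and the gene SEMA7A fell by 0.30 and 0.38, and EPHA5 and NTN4 by 0.70 and 0.26. SEMA3C lost its call with limma on TPM (0.0721).

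Secreted factors of the senescent state were called in both directions. Of 18 tested factors 7 rose and 4 fell (median 0.39; 0.20 to 0.55 over the alternatives; 61.1% called, against 15.7% over all tested genes). IL1B, an inflammatory cytokine, was at 5.51, 3.17 and 7.84 CPM in mCherry_4 and 15, 16.4 and 24 CPM in LmnB1_16 (1.75, SE 0.26, edgeR adjusted p = 1.6e-04), and CXCL8, a neutrophil attractant, rose by 1.81 from 5.57 to 19.4 CPM. ICAM1, an adhesion receptor for leukocytes, was at 0.181, 0.167 and 0.0847 CPM in mCherry_4 and 1.51, 1.62 and 1.91 CPM in LmnB1_16 (3.50), and its call was lost with effective-length offsets and with limma on TPM (adjusted p up to 0.094). PLAU, VEGFA and LIF (0.68) rose as well. The falls included the insulin-like growth factor binding proteins IGFBP3 (from 274, 348 and 260.0 CPM to 138, 135 and 146 CPM, -1.07) and IGFBP7 (-0.41). CXCL1, CXCL2, CCL2, MMP1, MMP3, MMP10 and HGF did not pass the filter. In LmnB1_6 against mCherry_3, 1 of the 18 factors was called higher and 10 lower (median -0.86), against 26.0% and 26.8% over all tested genes.

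Of 31 tested chemokines, interleukins, TNF family members and their receptors 7 rose and 3 fell (median 0.17; 0.11 to 0.28 over the alternatives; 32.3% called, against 15.7% over all tested genes). TNFRSF1B, a TNF receptor, rose from 0.857, 1.21 and 1.78 CPM to 7.44, 7.96 and 7.84 CPM (2.58, SE 0.21), and IL6ST, the shared receptor chain gp130, by 0.32. TNFSF12, which has exons in common with a readthrough transcript and so is uncertain, was at 0.135, 0.209 and 0.0424 CPM in mCherry_4 and 1.56, 1.72 and 2.16 CPM in LmnB1_16. The receptor genes IL7R (from 6.18, 6.68 and 5.47 CPM to 2.04, 1.38 and 1.47 CPM), IL6R and IL1R1 fell by 1.91, 1.12 and 0.98. IL6R lost its call with effective-length offsets and with limma on TPM (adjusted p up to 0.457), and IL1R1 with limma on TPM and with only the 6 libraries (up to 0.0786).

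Interferon-stimulated genes were higher in 11 and lower in 3 of 35 tested cases (median 0.19; 0.092 to 0.26 over the alternatives; 40% called, against 15.7% over all tested genes). OAS3, an antiviral sensor of double-stranded RNA, rose from 49.1, 51.7 and 47.1 CPM to 83.7, 94.4 and 82.6 CPM (0.82, SE 0.09, edgeR adjusted p = 3.7e-06), and PARP14 from 36.1, 29.8 and 35.3 CPM to 57.3, 70.4 and 57.9 CPM (0.87). IFIT2, IFI44, IRF1 and IFIT3 rose by 0.85, 0.80, 0.55 and 0.49, and BST2 rose while staying under 1 CPM on average. IRF1 lost its call with effective-length offsets and with limma on TPM (adjusted p up to 0.105). The other 4 rises were lost without at least 1 library. Against this, SAMD9 fell from 49.6, 45.4 and 46.6 CPM to 12.1, 15.9 and 12.2 CPM (-1.82, SE 0.11), ISG15 fell by 0.57 and IRF7 was nearly absent. Of 20 tested genes of MHC class I and antigen processing 3 rose and none fell by edgeR or DESeq2 (2 lower at unadjusted p under 0.05), with a median of 0.16 (15% higher, against 6.67% over all tested genes). HLA-B, uncertain because HLA genes share reads, rose from 149.6, 139.9 and 151 CPM to 269.7, 235 and 289 CPM (0.85), CALR by 0.23 and ERAP1, which overlaps CAST on the opposite strand, by 0.31. Without LmnB1_16 replicate 2 the number of rises in this list was 9. Against mCherry_3, LmnB1_6 had 2 of the 35 interferon-stimulated genes called higher and 27 lower (median -0.63). For the MHC class I list it had 1 higher and 16 lower (median -0.58). Over all tested genes, that comparison called 26.0% higher and 26.8% lower.

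Targets of p53, the transcription factor of the DNA damage response, were lower where they were called. Of 27 tested targets 13 fell and none rose (edgeR; none at unadjusted p under 0.05 and none with DESeq2), and the median was -0.31 (-0.43 to -0.20 over the alternatives; 48.1% lower, against 9.00% over all tested genes). TNFRSF10A, a death receptor, was at 7.58, 7.60 and 8.35 CPM in mCherry_4 and 1.61, 1.47 and 2.31 CPM in LmnB1_16 (-2.11, SE 0.20, edgeR adjusted p = 1.8e-06). ZMAT3, an RNA-binding protein gene, fell from 127, 113 and 112 CPM to 65.1, 81 and 59.9 CPM (-0.78) and PHLDA3 from 73.7, 69.7 and 74.1 CPM to 53.6, 43 and 55.7 CPM (-0.51). CDKN1A, the cell cycle inhibitor p21, fell by 0.75 from 309 to 184 CPM. The death receptor gene FAS, which overlaps ACTA2 on the opposite strand, fell by 0.83, and DDB2, TP53INP1, AEN and RRM2B by 0.78, 0.59, 0.44 and 0.42. With limma on TPM the calls of these last 4 were lost (adjusted p = 0.0554, 0.0922 and 0.0921 for the first 3), and for RRM2B also with effective-length offsets (up to 0.302). The other 4 falls were lost without at least 1 library. Leaving out 1 library gave 10 to 13 falls, and limma on TPM gave 5. Between LmnB1_6 and mCherry_3, 8 targets were called higher in LmnB1_6 and 6 lower (median 0.07), against 26.0% and 26.8% over all tested genes. In mCherry_3 and LmnB1_6, TNFRSF10A averaged 2.68 and 2.04 CPM, FAS 30.8 and 36.3, ZMAT3 119 and 107 and PHLDA3 53.6 and 71.5.

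Of 13 tested D cyclins, CDK inhibitors and RB family genes 2 rose and none fell by edgeR, by DESeq2 or at unadjusted p under 0.05 (median 0.05; 15.4% higher, against 6.67% over all tested genes). Both rises were in CDK inhibitors: CDKN1B from 73.2, 71 and 79.1 CPM to 101, 86.3 and 103 CPM (0.38) and CDKN2B from 15.1, 12.7 and 16.9 CPM to 20.9, 20.4 and 25.2 CPM (0.58). The CDK inhibitor gene CDKN1A is not in this list. It was counted with the p53 targets and fell, as given above. Replication and S phase entry genes were slightly higher. Of 43 tested 13 rose and none fell by edgeR, by DESeq2 or at unadjusted p under 0.05, and the median was 0.18 (30.2% higher). UNG, a uracil repair enzyme, rose from 43.7, 48.4 and 40.6 CPM to 70.8, 75.9 and 71.4 CPM (0.72, SE 0.08, edgeR adjusted p = 1.5e-05), RFC3, a clamp loader subunit, by 0.46 and the replicative helicase subunits MCM5 and MCM6 by 0.37 and 0.29. MCM10 rose by 0.33, a call lost with limma on TPM (adjusted p = 0.0514), and the other 8 rises, all under 0.41, were lost without at least 1 library. The number of rises was 5 without mCherry_4 replicate 1, 8 without replicate 2, 6 without replicate 3 and 8 without LmnB1_16 replicate 3. Of 35 tested mitotic genes 3 were called higher and none lower (median 0.11; 8.57% higher, close to the 6.67% over all tested genes; 1 lower at unadjusted p under 0.05, none with DESeq2). The number called higher was 0 or 1 without any 1 of the mCherry_4 libraries or without LmnB1_16 replicate 1 or 3. Against mCherry_3, LmnB1_6 had 34 of the 43 replication genes called higher and 0 lower (median 0.46). All 35 mitotic genes were called higher in that comparison (median 1.08). Its shares over all tested genes were 26.0% higher and 26.8% lower.

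The called chromatin genes differed by little. Of 24 tested genes of cohesin, condensin and CTCF 7 rose and none fell by edgeR, by DESeq2 or at unadjusted p under 0.05 (median 0.13; 0.11 to 0.20 over the alternatives; 29.2% higher, against 6.67% over all tested genes). CTCF, the insulator protein at chromatin loop anchors, was at 61.7, 65.3 and 58.6 CPM in mCherry_4 and 78.9, 78.2 and 76.6 CPM in LmnB1_16 (0.33, SE 0.06, edgeR adjusted p = 4.7e-04), and TOP2A, a topoisomerase of dividing cells, rose by 0.31 and ESCO2 by 0.30. Without mCherry_4 replicate 3 the count was 4. Of 29 tested Polycomb genes 6 rose, among them EZH2, the histone H3K27 methyltransferase (from 62.7, 60.1 and 59.7 CPM to 77.9, 68.2 and 77.8 CPM, 0.30), RYBP (0.37) and CBX6 (0.32), and none fell by edgeR, by DESeq2 or at unadjusted p under 0.05 (median 0.06; 20.7% higher). Without mCherry_4 replicate 1 the count was 3. Against mCherry_3, LmnB1_6 had 20 of the 24 cohesin, condensin and CTCF genes called higher and 1 lower. For the 29 Polycomb genes it had 12 higher and 2 lower. The shares of that comparison over all tested genes were 26.0% and 26.8%.

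Of 17 tested genes of DNA methylation 4 rose and none fell by edgeR (1 by DESeq2 and 2 at unadjusted p under 0.05; median 0.04; 23.5% higher, against 6.67% over all tested genes). UHRF1, which brings the maintenance methyltransferase to replicated DNA, rose from 209, 216 and 202 CPM to 281, 277 and 279 CPM (0.41, SE 0.06), and DNMT1, that methyltransferase, by 0.27. HELLS, a remodeller needed for methylation, rose by 0.33. The call of DNMT1 was lost with effective-length offsets (adjusted p = 0.0702) and that of HELLS with these and with limma on TPM (up to 0.205). With effective-length offsets only 1 member of this list was called. With LmnB1_6 against mCherry_3, 12 of the 17 were called higher and 2 lower, against 26.0% and 26.8% over all tested genes. Of 21 tested H3K9 methylation and HP1 genes 4 rose and 2 fell (median 0.08; 28.6% called, against 15.7% over all tested genes), with KDM4B, an H3K9 demethylase, at 50.3, 48.4 and 48.6 CPM in mCherry_4 and 37.9, 40.6 and 36.9 CPM in LmnB1_16 (-0.35), a call lost with limma on TPM (adjusted p = 0.0714). The rises included SUV39H2 (0.33), which overlaps DCLRE1C on the opposite strand, EHMT2 (0.27) and KDM3B (0.22), each lost without at least 1 library. The count of calls in this list went from 6 to 2 without mCherry_4 replicate 1 and to 3 without mCherry_4 replicate 3 or LmnB1_16 replicate 3.

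At the nuclear envelope LMNB1 and NUP210 were the outstanding genes. Of 23 tested lamins and lamina-associated proteins 4 rose and 3 fell (median 0.01; 30.4% called, against 15.7% over all tested genes). The 3 rises besides LMNB1, among them TMPO, the gene of the lamina-associated polypeptide LAP2 (0.28), were lost without at least 1 library, TMPO without mCherry_4 replicate 3 or LmnB1_16 replicate 2 (adjusted p up to 0.0786). EMD, the gene of emerin, fell from 72.5, 70.3 and 76 CPM to 57.8, 54.1 and 61.8 CPM (-0.33, SE 0.06, edgeR adjusted p = 0.0011). None of 5 tested SUN and nesprin genes was called by edgeR (1 lower by DESeq2 and 1 at unadjusted p under 0.05), and SUN1, which spans the inner nuclear membrane, had a log2 fold change of -0.10. Of 29 tested nuclear pore genes 3 were called higher (NUP160, NUP37 and SEH1L, by 0.21 to 0.23) and NUP210 lower, with a median of 0.11 (0.052 to 0.17 over the alternatives; 13.8% called, close to the 15.7% over all tested genes). Each of the 3 lost its call without at least 1 library (adjusted p up to 0.068, 0.13 and 0.233 over all alternatives). The number called higher was 1 without mCherry_4 replicate 2 and 6 with DESeq2.

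Histone genes were called in 1 case higher and 3 lower of 17 tested (median -0.05; 23.5% called, against 15.7% over all tested genes); H2BC4, with near-identical copies, was at 2.53, 3.26 and 1.91 CPM in mCherry_4 and 1.02, 1.18 and 0.733 CPM in LmnB1_16 (-1.40), and between 1 and 2 members were called when a library of mCherry_4, or replicate 1 of LmnB1_16, was left out. Clustered protocadherins, homophilic adhesion molecules that share 3′ exons within a cluster and are therefore uncertain, were called in 8 cases lower and 1 higher of 28 tested (median -0.11; -0.29 to -0.0036 over the alternatives; 32.1% called). PCDHA6 was at 18, 21.4 and 18.2 CPM in mCherry_4 and 0.535, 0.344 and 0.293 CPM in LmnB1_16 (-5.63, SE 0.21, edgeR adjusted p = 1.5e-11), and PCDHB5 at 2.75, 1.96 and 2.08 CPM in mCherry_4 and 0.195, 0.246 and 0.183 CPM in LmnB1_16. PCDHA12 stood at 1.31 CPM in mCherry_4 with no count in LmnB1_16.

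Of 39 HOX genes 8 were tested, of which 2 were called higher and 1 lower (median -0.64; 37.5% called, against 15.7% over all tested genes). HOXB9 was at 1.17, 1.29 and 1.91 CPM in mCherry_4 and 0.146, 0.147 and 0.293 CPM in LmnB1_16 (-2.80), in contrast to HOXB4 in the same cluster. Among 41 tested developmental transcription factors 9 rose and 7 fell (median 0.08; 39% called). RUNX2, a regulator of bone formation, rose from 15.8, 14.2 and 14 CPM to 27.1, 32.7 and 24.7 CPM (0.94, SE 0.12), GATA6 from 21.7, 21.6 and 22.2 to 38.9, 38.4 and 33 CPM (0.75), PRRX1 by 0.57, NR2F1 by 0.42, and FOXL2 from 0 to 0.874 CPM, while PITX1 and SIX2 fell by 1.18 and 1.17, the first call being lost with limma on TPM (adjusted p = 0.0793). Without LmnB1_16 replicate 2 the counts were 7 higher and 3 lower. Of 19 tested imprinted genes 3 rose and 2 fell (median -0.03; 26.3% called). ZNF331 rose from 0.451, 0.543 and 0.551 CPM to 4.67, 3.49 and 4.03 CPM (2.97, SE 0.25), SNRPN, which shares exons with SNHG14, fell by 0.96 and MEST, which overlaps COPG2 on the opposite strand, rose by 0.38. H19 was at 0.361, 0.417 and 0.678 CPM in mCherry_4 with no count in LmnB1_16 (at least 11-fold lower).

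Lysosomal genes were lower where called in most cases. Of 43 tested lysosomal hydrolases and membrane proteins 12 fell and 2 rose (median -0.09; 32.6% called, against 15.7% over all tested genes). Besides GALC and DPP7, SGSH, a heparan sulfatase gene that overlaps SLC26A11 on the opposite strand, fell from 17.3, 15.3 and 15 CPM to 4.82, 3.69 and 4.25 CPM (-1.90), the protease gene CTSH from 21.8, 19.2 and 19.2 CPM to 8.47, 7.57 and 6.78 CPM (-1.41) and LGMN from 25.8, 26.5 and 26.4 CPM to 13, 11.9 and 12 CPM (-1.09). CTSK, CTSC and CTSB fell by 0.48, 0.33 and 0.32. LIPA, a lysosomal lipase gene, rose by 0.25. With LmnB1_6 against mCherry_3, 6 of the 43 were called higher and 24 lower (median -0.28), against 26.0% and 26.8% over all tested genes.

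Glycolytic and hypoxia-responsive genes were lower in 9 and higher in 1 of 28 tested cases (median -0.13; -0.17 to -0.082 over the alternatives; 35.7% called, against 15.7% over all tested genes). BNIP3, a mitophagy receptor, fell from 178, 169 and 178 CPM to 128, 125 and 116 CPM (-0.51, SE 0.06), and the glycolytic enzyme genes PFKP and PGK1 fell by 0.28 and 0.24, whereas VEGFA rose. PGK1 lost its call with limma on TPM (adjusted p = 0.0795). The other 6 falls were lost without at least 1 library. With effective-length offsets 5 members were called lower, and with limma on TPM 2. LmnB1_6 had 18 of the 28 called higher than mCherry_3 and 6 lower (median 0.30), against 26.0% and 26.8% over all tested genes. Of 31 tested genes of cholesterol and fatty acid synthesis 4 rose and 3 fell (median 0.05; 22.6% called). SCD, the fatty acid desaturase, was at 346, 326 and 315 CPM in mCherry_4 and 492, 742 and 441 CPM in LmnB1_16 (0.76, SE 0.16), with replicate 2 of LmnB1_16 the highest, and SREBF1, the regulator of lipid synthesis, rose by 0.50, a call lost with effective-length offsets and with limma on TPM (adjusted p up to 0.152). EBP fell by 0.70. Without mCherry_4 replicate 3 the counts were 2 higher and 2 lower.

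Of 27 tested genes of the unfolded protein and ATF4 responses 2 rose and 1 fell (median 0.07; 11.1% called, close to the 15.7% over all tested genes). SLC7A11, a cystine transporter, rose from 38.6, 40.7 and 42.8 CPM to 63.3, 78.4 and 64.4 CPM (0.75) and PHGDH, of serine synthesis, by 0.36. Of 18 tested heat shock chaperones 2 rose and 2 fell (median 0.02; 22.2% called). HSPA2 rose from 3.61, 3.13 and 4.19 CPM to 14.4, 12.1 and 14.4 CPM (1.91) and HSPH1 by 0.47, and besides HSPB8 the small heat shock gene CRYAB fell from 0.677, 0.876 and 1.19 CPM to 0.0487, 0.0983 and 0.0366 CPM (-3.85).

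Housekeeping lists of the ribosome and the respiratory chain had no call in the main fit. Of 77 tested cytosolic ribosomal protein genes none was called by edgeR, none by DESeq2 and none at unadjusted p under 0.05 (median -0.04), and the same was found for 13 mitochondrially encoded genes (median 0.04). None of 38 nuclear-encoded respiratory chain genes was called by edgeR or DESeq2, with 5 lower at unadjusted p under 0.05 (median -0.08). Leaving out 1 library gave up to 2 calls lower in this last list. With effective-length offsets 1 cytosolic ribosomal protein gene was called lower. RPLP0, MT-CO1 and ATP5F1B, among the most abundant of the 3 lists, had log2 fold changes of -0.06, 0.12 and -0.09.

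**Figure D4:**
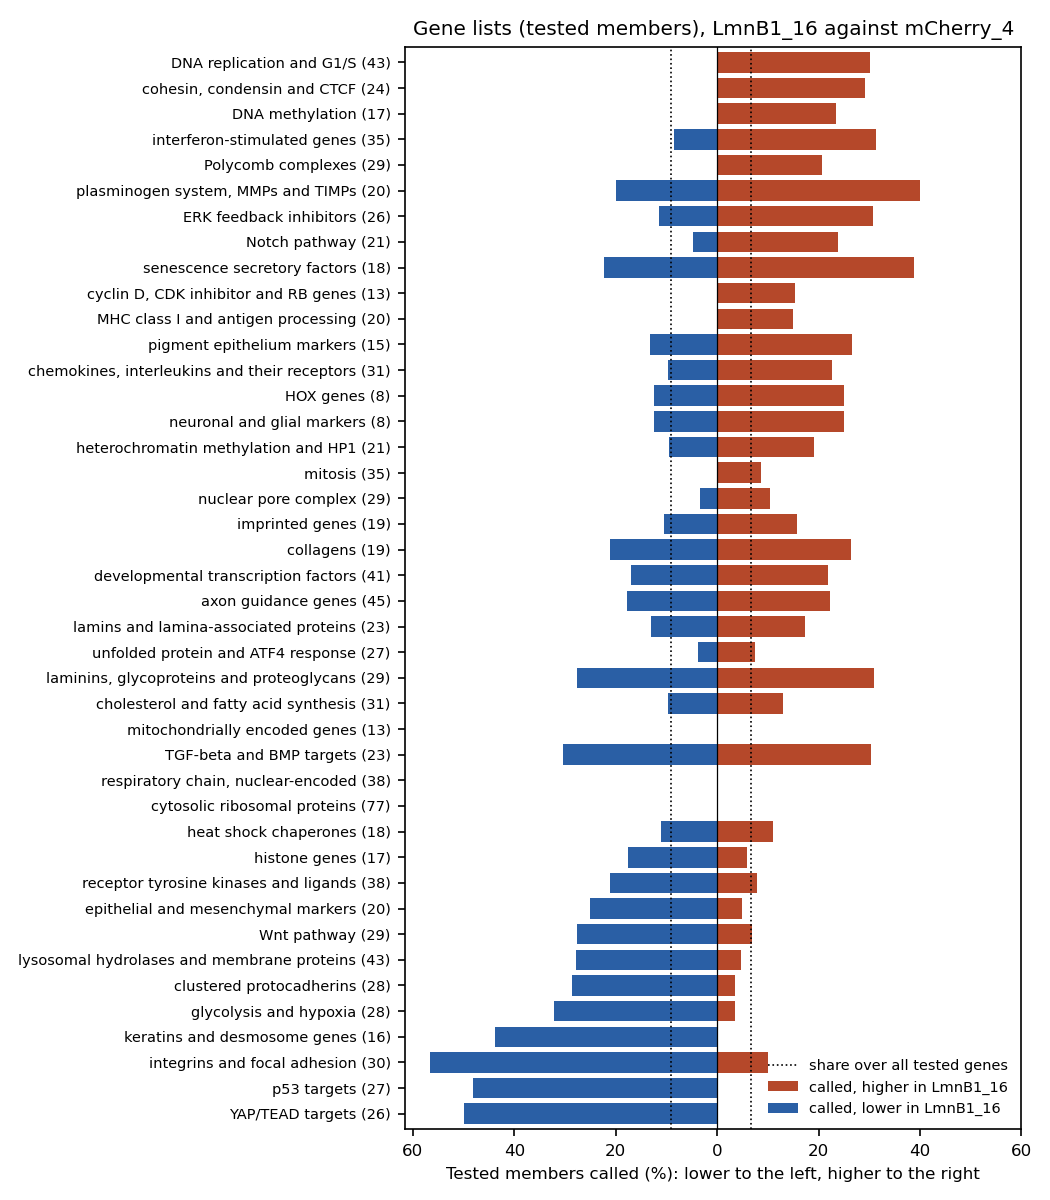
Share of the tested members called higher (red, to the right) and lower (blue, to the left) in LmnB1_16 against mCherry_4, for gene lists with at least 8 tested members (number in brackets); dotted lines mark the shares over all tested genes, 6.67% higher and 9.00% lower. Focal adhesion, p53 and YAP/TEAD lists reach furthest to the left, DNA replication and cohesin lists lie wholly to the right, and ribosomal and mitochondrial lists have no bar.

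The labelled tissue was checked against its markers. Of 26 pigment epithelium markers 15 were tested, 8 had no count in the 6 libraries, and these 8 included RPE65, TYR, DCT and TRPM1. The summed level of the 26 markers was 307 to 327 CPM in mCherry_4 and 318 to 336 CPM in LmnB1_16. Of the tested markers 4 rose and 2 fell (median -0.02; 40% called, against 15.7% over all tested genes): the retinol dehydrogenase RDH10 rose from 14.4, 13.3 and 14.4 CPM to 25.3, 29.3 and 27.9 CPM (0.97), the phagocytosis receptor MERTK from 2.48, 2.38 and 3.05 CPM to 7.79, 6.29 and 6.52 CPM (1.38), and 2 others were lost without at least 1 library. MITF, a transcription factor of pigmented cells, fell from 48.8, 47 and 51.1 CPM to 28.7, 34.1 and 31 CPM (-0.65).

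Markers of other cell types were mostly untested or at 0. Of 22 neuronal and glial markers 8 were tested and 6 had no count, with summed levels of 309 to 344 and 335 to 363 CPM in mCherry_4 and LmnB1_16. 2 rose, MAP2 (from 24.7, 21.2 and 23.3 CPM to 42.9, 43.8 and 43 CPM) and SNAP25, whose call was lost in 5 of the 6 fits without 1 library (adjusted p up to 0.167 over all alternatives), and MBP fell by 1.66 (median of the tested 0.53; 0.046 to 0.92 over the alternatives; 37.5% called, against 15.7% over all tested genes). Of 10 leukocyte markers 2 were tested, CD68 and CSF1R, and neither was called by edgeR or DESeq2 (1 at unadjusted p under 0.05; 0.20 and -0.42; CD68 was called higher without mCherry_4 replicate 3 or LmnB1_16 replicate 2, with effective-length offsets and with limma on TPM), with summed levels of 66.8 to 77.7 and 75.2 to 80.9 CPM and CD3E and NKG7 at 0. Of 10 endothelial markers 4 were tested and 2 rose, TIE1 (from 3.79, 3.71 and 4.19 CPM to 6.96, 7.67 and 6.96 CPM, lost with effective-length offsets and with limma on TPM, adjusted p up to 0.136) and KDR, with sums of 6.0 to 7.92 and 9.93 to 11.7 CPM and ERG and EMCN at 0. Of 10 muscle markers 3 were tested and 1 rose, TNNT1, from 55.4, 55.5 and 55.1 CPM to 94.2, 80.4 and 91.1 CPM, with sums of 56 to 56.7 and 81.5 to 95 CPM. In RNA from whole cultures, fewer cells of a kind and less RNA per cell cannot be told apart. The part of any such marker in the results above was not tested.

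The contrast was then set beside LmnB1_6 against mCherry_3, which uses the other clone of each construct and shares no library with it. The labels do not pair the clones of the 2 constructs, so this matching was a choice and the shared counts below hold for it alone. LmnB1_6 against mCherry_3 called 8122 genes (52.8%), 3997 higher (26.0%) and 4125 lower (26.8%). Of the 1026 genes higher in LmnB1_16 than in mCherry_4, 477 were also higher there (46.5% of the 1026 and 11.9% of the 3997) and 304 were lower (29.6%). Of the 1385 genes lower in LmnB1_16, 711 were also lower there (51.3% of the 1385 and 17.2% of the 4125) and 326 were higher (23.5%). The test of the difference between the 2 contrasts called 5557 genes (36.1%), 2742 with the higher log2 fold change in the LmnB1_16 contrast (17.8%) and 2815 with the lower (18.3%), and this split was 3344 to 1433 with limma on TPM. Among the 5557 were 659 of the 1026 genes higher in LmnB1_16 (64.2%) and 856 of the 1385 lower (61.8%).

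For the 15 top rises and 15 top falls (protein coding, mean of at least 2 CPM), the levels of the other clones were read against the midpoint, on the log2 scale, between mCherry_4 and LmnB1_16. In 9 of the 30 genes mCherry_3 lay with mCherry_4 and LmnB1_6 with LmnB1_16 (LMNB1, ZNF185, POGLUT3, APBA2, BGN, HSPB8, RHOD, MAOA and PCDHA6). In 8 genes both other clones lay with mCherry_4, among them PLXNA4, TMEM168 and SHISA2, and in 9 both lay with LmnB1_16, among them NUP210, ATP11A and GALC. In the last 4, CMKLR1, FNDC10, EMC10 and NKD1, the other clones were crossed. Over all 271 protein-coding genes called at least 2-fold with a mean of at least 2 CPM, these numbers were 73 (26.9%), 100 (36.9%), 60 (22.1%) and 38 (14%). BGN, for example, stood at 4.84 ± 0.545 CPM in mCherry_4, 1.07 ± 0.129 in mCherry_3, 63 ± 4.13 in LmnB1_16 and 50.4 ± 4.72 in LmnB1_6 (SD, n = 3), and SERPINB2 at 46.7 ± 3.93, 133 ± 2.09, 304 ± 10.7 and 8.81 ± 1.42 CPM in the same order.

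**Figure D5:**
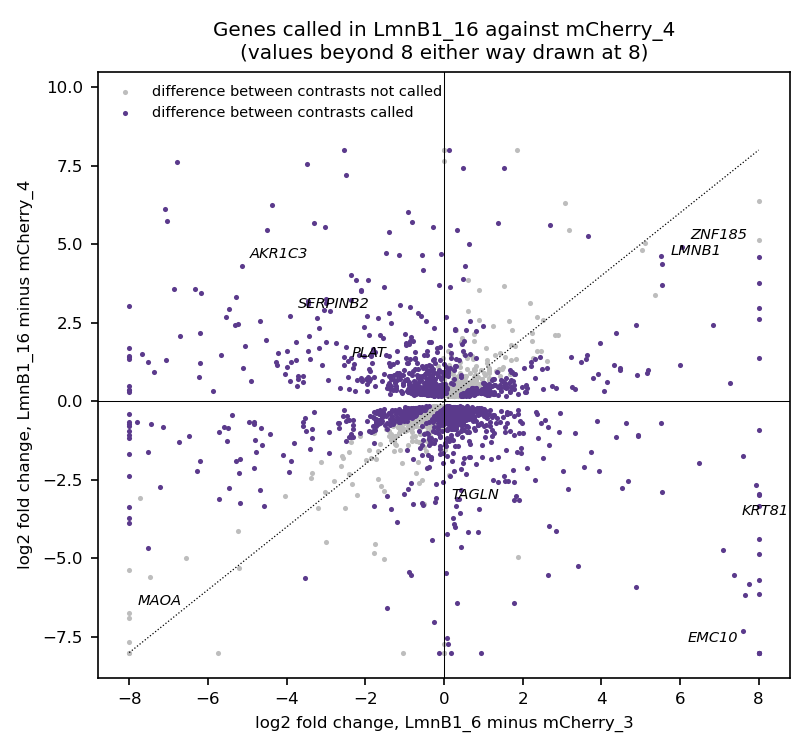
Log2 fold change of LmnB1_16 over mCherry_4 (vertical axis) against that of LmnB1_6 over mCherry_3 (horizontal axis) for the 2411 genes called in the first contrast, with values beyond 8 drawn at 8; purple points are genes whose 2 contrasts differed by the test of the difference, grey points are the others, and the dotted line marks equal change. ZNF185, LMNB1 and MAOA lie in the quadrants of equal direction, and AKR1C3, SERPINB2, PLAT, EMC10 and KRT81 in those of opposite direction.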

How the data were processed

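Messenger RNA of 12 libraries, 3 from each of 4 clones, was sequenced, and the 6 libraries of LmnB1_16 and mCherry_4 were compared. The authors deposited 1 gene table per library, with estimated counts, TPM (length-scaled transcript abundance) and effective lengths per the file headers. STAR, Salmon, DESeq2 and GRCh38 (hg38) appear in the submitters' processing notes with no tool version. No source used here gives the annotation release or the strand setting. The deposited estimated counts were rounded to whole numbers. Genes with low counts were removed with edgeR's filterByExpr (minimum count 10, minimum total 15), libraries were scaled with TMM, and the quasi-likelihood test of edgeR 4.0.16 (R 4.3.3) was fitted to all 12 libraries with the 4 clones as groups, so that they share 1 estimate of the spread. The contrasts were LmnB1_16 against mCherry_4, LmnB1_6 against mCherry_3 and their difference, each called at an adjusted p (Benjamini-Hochberg) under 0.05. The deposited TPM values were used for the lamin genes and, as log2(TPM + 1) with limma 3.58.1, as an alternative; DESeq2 1.42.0, effective-length offsets, other filters, RLE factors, a replicate block, only the 6 libraries and leaving out each library were the others. Counts of list members under each alternative and values of list members outside the naming rule were added after seeing the data.

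The genes compared and the 46 gene lists were chosen with earlier results of these data known. Genes were named where they were among the 15 largest rises or falls (called, protein coding, mean of at least 2 CPM), the 10 smallest p-values or the 5 largest changes in CPM in each direction, or among up to 4 called and 2 uncalled members of a list. Other list members and neighbouring genes were named after their values were seen. Positions come from GENCODE 29 (GRCh38). Limits for counts of 0 (3 counts) and 95% intervals cover counting error only. On simulated counts for LmnB1_16 against mCherry_4 (15388 genes) the test recovered 62.7% of 67 genes changed 1.5-fold, 68.7% of 67 changed 2-fold and 90.9% of 66 changed 4-fold, with 6 false among 154 calls. A few list members are counted with their lists and not reported here by name.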

Additional observations from a re-analysis of the deposited data

Results flagged for a closer look

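The difference between the contrasts LmnB1_16 against mCherry_4 and LmnB1_6 against mCherry_3 was called for 5557 genes by edgeR's test of that difference. Besides LMNB1, the genes below are the 5 each way with the largest edgeR log2 fold change of that difference. They were taken from called protein-coding genes with a mean of at least 2 CPM over the 12 libraries. PLXNA4 and GALC had no count in mCherry_3 or LmnB1_6, and their SE for the difference was 30943 and 20215. The test could therefore not decide for them, and they are not among the 5557. The differences below are given on the log2 scale of the clone means plus 0.1 CPM, as the first contrast minus the second, with the means in the order mCherry_4, LmnB1_16, mCherry_3 and LmnB1_6. Some genes not listed, such as CMKLR1 and KRT81, differed more on this scale than some that are. LMNB1 rose in both contrasts and differed by -1.16 between them, with means of 161, 3374, 85 and 3976 CPM. NKD1 had the largest difference of the genes listed, -17.74, with means of 6.73, 0.0162, 0 and 372 CPM. EMC10 differed by -16.93, with means of 87.2, 0.154, 0.159 and 94.1 CPM. FNDC10 differed by -14.13, with means of 13.5, 0, 0.0370 and 18 CPM. PALM, which encodes the membrane protein paralemmin, differed by -11.79, with means of 1.37, 0.0164, 0.0496 and 41.8 CPM. HSD17B2, a steroid dehydrogenase gene, differed by -8.72, with means of 0.261, 0, 0 and 11.6 CPM. In the opposite direction, the collagen gene COL4A5 differed by 9.66, with means of 37.5, 44.5, 68.1 and 0 CPM. NRK, a kinase gene, differed by 8.80, with means of 5.45, 14.4, 16.9 and 0 CPM. SLC1A1, a glutamate transporter gene, differed by 8.58, with means of 7.49, 18.8, 15.2 and 0 CPM. PGM5 differed by 8.22, with means of 50.6, 29.7, 50.6 and 0 CPM. DMD, the gene of dystrophin, differed by 8.10, with means of 19.1, 24.5, 21.3 and 0 CPM.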

How the results depend on the processing

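The 2411 calls became 1531 with effective-length offsets (648 higher, 883 lower) and 1418 with limma on log2(TPM + 1) (755 higher, 663 lower), where 244 genes passed 2-fold; the TPM scale moved the share of higher calls and shifted the median of all genes to 0.044. The difference between the contrasts split 3344 to 1433 under TPM. Other counts stayed within 1.5 times: 2590 with DESeq2, 2390 with RLE factors, 2660 without a filter, 2316 at a minimum count of 50 and 1900 with only the 6 libraries. Leaving out 1 library gave 1725 to 2233 calls, and 497 to 539 at 2-fold. Genes silent in one clone and expressed in the other numbered 75 at 1 CPM. With a replicate block 2481 genes were called (1078 higher, 1403 lower), of which 2319 were among the 2411; same-numbered libraries of the 2 clones had correlations of 0.044, 0.069 and 0.181. Not every pair passed 0.1, so the numbers were not taken as a pairing. Between these 2 clones each of the 6 libraries correlated best with its own number. Replicate 3 of LmnB1_6 also went with replicate 3 of both clones (0.122 and 0.119). These are hints from the data, not from the design. Over all 4 clones, however, mCherry_4 replicate 1 correlated best with LmnB1_6 replicate 2 (0.092). LmnB1_16 replicate 1 correlated with that library as much as with mCherry_4 replicate 1 (0.044 each). Uncalled genes with values near 0 changed sign: SUN2 reached 0.002 (no filter), 0.0003 (minimum count 50), 0.0038 (length offsets), 0.0554 (TPM), 0.0249 (without mCherry_4 replicate 2) and -0.0382 to 0.0327 over the fits without 1 library. CSF1R reached 0.3783 and 0.319 (length offsets, TPM), MT-ND4 0.0347 (TPM) and -0.0778 to 0.0687 (without 1 library) and RPS2 0.0037 (TPM) and -0.0909 to 0.054 (without 1 library). Of 184 called genes named by rule, 34 lost the call under at least 1 alternative, 22 of them without 1 library; of 178 other called list members, 116 and 88 did. Among the latter TIGAR (0.0397, TPM) and PLXNB1 (0.0276 with length offsets, 0.0504 with TPM) changed sign. The median changed sign under at least 1 alternative for the lists of lamins, TGF-beta, laminins, epithelial and mesenchymal, pigment epithelium, leukocyte, muscle, HOX, histone, mitochondrially encoded, ribosomal, Wnt, receptor tyrosine kinase and imprinted genes. The cause was not tested.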
